A study of Arabidopsis thaliana with 8 samples.

Results

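The genes described here are 44 transcription regulator genes of Arabidopsis shoots, set between seedlings given a synthetic brassinosteroid and seedlings without it, before, during and after heat. They were taken from the 4 comparison tables that the authors deposited, as probe sets with 1 locus whose biological process annotation names regulation of transcription. Of 52 probe sets with that annotation, 50 had 1 locus. Leaving out genes annotated to the chloroplast or to kinase activity and 5 further loci took these down to 44, of 692 with 1 locus and 733 in all in those tables, and of 22746 on the array. The EBR seedlings, of the Columbia (Col) ecotype, had 24-epibrassinolide (EBR) at 1 µM in their medium for 21 days. Control seedlings of the same ecotype and age had 0.01% ethanol. Shoots of both arms were taken at 0 h (no stress), after 1 h or 3 h at 43°C, and after a 6 h recovery at 22°C that followed 3 h of heat. Each of the 8 groups has 1 deposited sample, which the labels describe as 3 biological replicate ATH1 arrays, with material of at least 30 seedlings pooled.

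Brassinosteroids are plant steroid hormones that act through a receptor kinase at the cell surface, and their signal ends at transcription factors that switch growth genes on or off. A transcription factor binds a short stretch of DNA and raises or lowers the output of nearby genes, so a modest change in its own transcript can reach many others. The 44 genes hold subunits of nuclear factor Y, response regulators of the hormone cytokinin, MYB, bZIP, AP2/ERF, NAC, MADS, WRKY and auxin response factors, and proteins of plastid transcription. The annotation is broader than the name of the group: RAB7A (AT2G21880) encodes a small GTPase and AT1G67120 encodes midasin, a ribosome assembly factor, and both carry the term by electronic annotation. PTAC2, PTAC12 and PTAC13 act in plastids, but the files place PTAC12 at the plastid chromosome and the exclusion of the word chloroplast did not remove these 3 genes.

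The main measure is the log2 ratio of EBR over control at each stage, read from the series' value table, so 1 on this scale is 2-fold and negative values are lower in EBR. With 1 deposited sample per group, no stage has a test of its own. The mean of the 4 stage ratios was tested against 0 with limma over all 22746 probe sets, and "rose" and "fell" are used only where the Benjamini-Hochberg adjusted p was at most 0.05. That p measures agreement between the 4 stages and not the spread between seedlings or arrays. All 44 genes come from tables that the authors had chosen on these samples (a 2-way analysis of variance and a 2-fold threshold). Of the 44, 17 are in no table of EBR against control at the same stage. These are listed only against control shoots at 0 h, where a change with heat can also pass the 2-fold threshold. The counts below thus describe genes selected on these samples and are no independent evidence of an EBR effect. In bulk shoots, a change in transcript per cell and a change in the number of cells that make it cannot be told apart.

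Over the 4 stages 14 of the 44 genes rose with EBR and 15 fell. Among all probe sets 5.06% rose and 5.91% fell. Nothing is read from the gap to these shares, since the 44 had been selected on these samples, in part for the effect. Of the other 648 probe sets with 1 locus in the authors' tables, 293 rose and 160 fell, which is 45.2% and 24.7%, against 31.8% and 34.1% of the 44. The ratio had the same sign at all 4 stages in 37 genes, 19 of them above 0 and 18 below, and 8 of those 37 were not called. Most shifts were small in the value table. The median size of the mean log2 ratio was 0.51, against 0.10 over all probe sets, and only NF-YA2 had a mean of at least 2-fold. The authors' normalized values, described below, mostly gave larger differences. By those, the mean of 0 h, 1 h and 3 h also passed 2-fold in other genes, such as NF-YA3 (1.64) and P1R1 (-1.59). At some stage 15 genes were at least 2-fold apart, and no gene was at every stage. Shares over all probe sets were not taken for the counts of 37 and 15, so neither is read as particular to these genes. The calls depended on which stages were in the fit, and a fit with 3 stages also has fewer values to judge by. In fits with 3 stages, for which no share over all probe sets was taken, 2 genes rose and 8 fell without 1 h, and 7 rose and 10 fell without 0 h. It was 9 that rose and 10 that fell without 3 h, and 17 and 17 without recovery. The 10 genes called whichever stage was left out were NF-YA2 and MYB62, which rose, and AGL87, ARR4, AT4G17810, MYB16, P1R1, PI, PTAC12 and WRKY17, which fell.

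**Figure D1:**
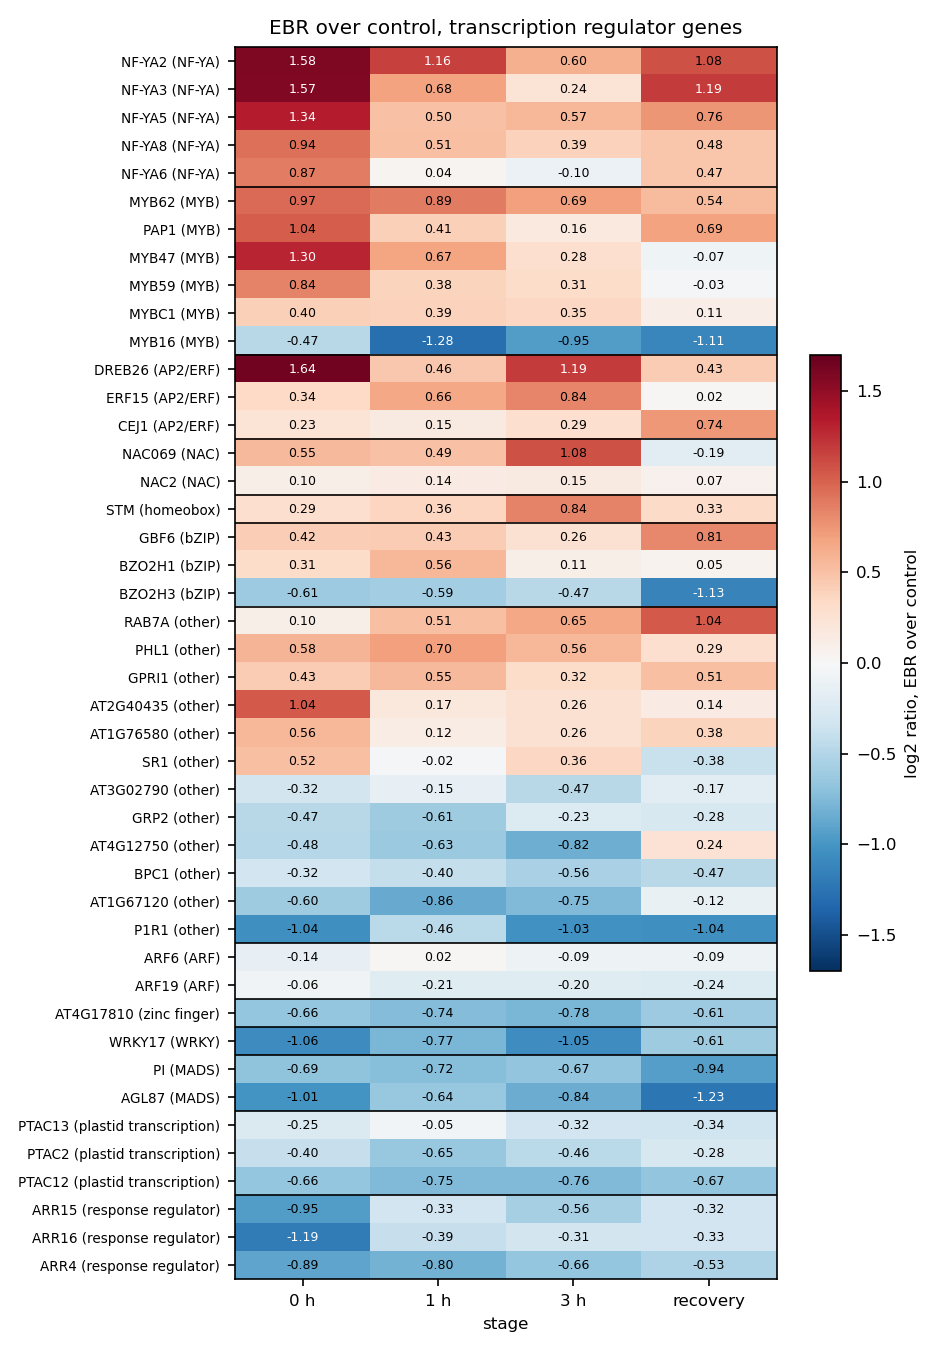
Log2 ratio of EBR over control (colour and printed value) for the 44 genes in rows, grouped by family, at the 4 stages in columns. The 5 NF-YA genes were above 0 at every stage but for NF-YA6 at 3 h (-0.10), and the 3 response regulator and both MADS genes were below 0 at every stage.

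The NF-YA genes were above control at nearly every stage, and 4 of the 5 rose. NF-YA proteins are the subunit of nuclear factor Y that recognises the CCAAT box, and in Arabidopsis several NF-YA transcripts are held down by a microRNA and are known for roles in drought and nutrient stress. NF-YA2 (AT3G05690) had log2 ratios of 1.58 at 0 h, 1.16 at 1 h, 0.60 at 3 h and 1.08 at recovery, and rose by a mean of 1.11 ± 0.40 (SD, n = 4 stages; limma adjusted p = 0.0051), which is 2.15-fold. NF-YA3 (AT1G72830) had 1.57, 0.68, 0.24 and 1.19 in the same order of stages and rose by 0.92 ± 0.58 (limma adjusted p = 0.0243). For NF-YA5 (AT1G54160) the ratios were 1.34, 0.50, 0.57 and 0.76, with a mean of 0.79 ± 0.38 (limma adjusted p = 0.0122). All 3 genes were thus highest at 0 h, and the first and second were again past 2-fold at recovery. NF-YA8 (AT1G17590) rose by 0.58 ± 0.25 (limma adjusted p = 0.0121), with 0.94 at 0 h and 0.39 to 0.51 later. NF-YA6 (AT3G14020) stood apart: it had 0.87 at 0 h and 0.47 at recovery, but 0.04 at 1 h and -0.10 at 3 h, and its mean of 0.32 ± 0.44 was not called (limma adjusted p = 0.225). The approximate SD between control arrays, pooled over the stages, was 0.03 to 0.32 log2 units for these 5 genes. Without the 1 h ratio only NF-YA2 of the 4 kept its call, and NF-YA3 also lost it without 0 h. The means of NF-YA3, NF-YA5 and NF-YA8 were larger without 1 h (1.00, 0.89 and 0.60), so these calls were not lost through a smaller mean. Without 0 h the mean of NF-YA3 was smaller, at 0.70. Whether probes of these related genes pick up each other's transcripts was not tested.

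Signal levels were listed for the NF-YA genes in the authors' deposited tables, as condition means with no error. At 0 h, NF-YA2 had a mean signal of 322 in EBR shoots, against 43.3 in control shoots, and NF-YA3 had 157 in EBR against 17.8 in control. NF-YA6 had 63.0 in EBR against 19.5 in control, NF-YA5 had 29.2 in EBR against 7.97 in control, and NF-YA8 had 18.1 in EBR against 5.34 in control. EBR was thus higher in all 5 genes, and for NF-YA6 and NF-YA8 the value table put the same gap below 2-fold, with log2 ratios of 0.87 and 0.94. The control level of NF-YA8 lay close to the lowest signal in the tables, 3.55, where the median was 75.1. After 1 h of heat NF-YA2 still had 154 in EBR against 16.7 in control, and after 3 h it had 59.4 against 24.1.

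The 3 response regulators fell together. They are type-A regulators, which cytokinin switches on quickly and which in turn damp cytokinin signalling. ARR4 (AT1G10470) had log2 ratios of -0.89 at 0 h, -0.80 at 1 h, -0.66 at 3 h and -0.53 at recovery, and fell by 0.72 ± 0.16 (SD, n = 4 stages; limma adjusted p = 0.00282). ARR16 (AT2G40670) had -1.19, -0.39, -0.31 and -0.33 and fell by 0.56 ± 0.42 (limma adjusted p = 0.0482), and ARR15 (AT1G74890) had -0.95, -0.33, -0.56 and -0.32 and fell by 0.54 ± 0.29 (limma adjusted p = 0.0221). ARR4 was thus lower by like amounts at each stage, while ARR15 and ARR16 were furthest below control before heat. At 0 h the authors' mean signal was 639 in EBR against 1380 in control for ARR4, the highest level listed for any of the 44 genes, 41.6 against 150 for ARR16, and 6.01 against 18.8 for ARR15. ARR15 and ARR16 lost their calls in each fit that lacked 0 h, 1 h or 3 h, and ARR16 also under median centring and quantile normalization, with means of -0.53 and -0.55.

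**Figure D2:**
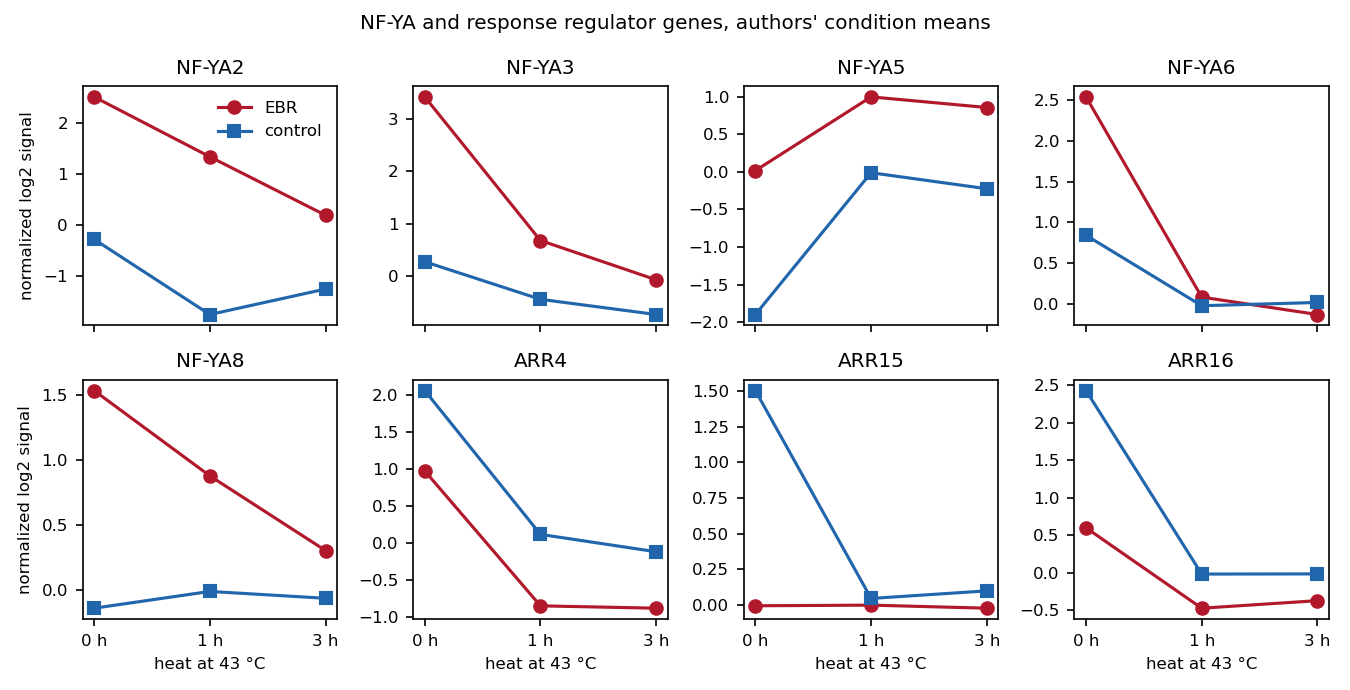
The authors' normalized log2 signal (condition means without error, centred for each gene, so heights cannot be compared between panels) in EBR shoots (circles) and control shoots (squares) at 0 h and after 1 h and 3 h of heat. NF-YA2 and NF-YA3 start high in EBR and drop with heat, NF-YA5 climbs in both arms, and the ARR15 and ARR16 control levels drop to near the EBR levels.

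The 6 MYB genes split. MYB62 (AT1G68320), a regulator of phosphate starvation responses, rose by 0.77 ± 0.19 (SD, n = 4 stages; limma adjusted p = 0.00305), with log2 ratios of 0.97 at 0 h, 0.89 at 1 h, 0.69 at 3 h and 0.54 at recovery. PAP1 (AT1G56650), the activator of anthocyanin synthesis also known as MYB75, had 1.04, 0.41, 0.16 and 0.69 (limma adjusted p = 0.0333). MYBC1 (AT2G40970), a regulator of freezing tolerance, rose by only 0.31 ± 0.14 (limma adjusted p = 0.0338), with 0.11 to 0.40 at the 4 stages. Those 3 genes rose, but PAP1 lost its call without 0 h or 1 h, and MYBC1 without 0 h, 1 h or 3 h. MYB47 (AT1G18710) and MYB59 (AT5G59780) were not called (limma adjusted p = 0.118 and 0.104): MYB47 had 1.30, 0.67, 0.28 and -0.07, and MYB59 had 0.84, 0.38, 0.31 and -0.03, so both were lower at each later stage than at the one before it and near control at recovery. MYB16 (AT5G15310), which shapes epidermal cells and the cuticle, ran the other way, with -0.47 at 0 h, -1.28 at 1 h, -0.95 at 3 h and -1.11 at recovery, and it fell (limma adjusted p = 0.00583). Its mean signal was 18.8 in EBR against 70.6 in control at 1 h, and 18.1 against 87.0 at 3 h, in the authors' deposited tables.

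Of 3 AP2/ERF genes DREB26 (AT1G21910) rose, by 0.93 ± 0.59 (SD, n = 4 stages; limma adjusted p = 0.0241). Its log2 ratio was 1.64 at 0 h, the highest single value among the 44 genes, then 0.46 at 1 h, 1.19 at 3 h and 0.43 at recovery, and the call was lost when 0 h, 1 h or 3 h was left out. In the authors' deposited tables DREB26 had mean signals of 1091 in EBR and 338 in control at 0 h, and of 199 in EBR and 68.2 in control at 3 h. ERF15 (AT2G31230) had 0.34, 0.66, 0.84 and 0.02, and CEJ1 (AT3G50260, also called DEAR1) had 0.23, 0.15, 0.29 and 0.74. Neither was called (limma adjusted p = 0.0557 and 0.0666), and they differ in where they peak, ERF15 during heat and CEJ1 at recovery. Control arrays of CEJ1 differed most at that stage, with an approximate SD of 0.88.

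The 2 NAC genes were not called. NAC069 (AT4G01550), of the membrane-bound type of NAC factor, had log2 ratios of 0.55 at 0 h, 0.49 at 1 h, 1.08 at 3 h and -0.19 at recovery (limma adjusted p = 0.122). NAC2 (AT5G04410) stayed between 0.07 and 0.15 (limma adjusted p = 0.275). The homeobox gene STM (AT1G62360), which keeps shoot meristem cells undifferentiated, rose by 0.45 ± 0.26 (SD, n = 4 stages; limma adjusted p = 0.0295), with 0.84 at 3 h and 0.29 to 0.36 at the other stages, and lost its call when 0 h, 1 h or 3 h was left out. The 3 bZIP genes went 3 ways. GBF6 (AT4G34590, bZIP11), a sugar-controlled regulator of amino acid metabolism, rose by 0.48 ± 0.24 (limma adjusted p = 0.0206), BZO2H3 (AT5G28770, bZIP63), a factor of the energy starvation response, fell by 0.70 ± 0.29 (limma adjusted p = 0.00963), and BZO2H1 (AT4G02640, bZIP10) was not called, with a mean of 0.26 ± 0.23 (limma adjusted p = 0.126). For GBF6 the stage ratios were 0.42, 0.43, 0.26 and 0.81, and for BZO2H3 they were -0.61, -0.59, -0.47 and -1.13. Both were furthest from control at recovery. GBF6 lost its call without 0 h or 1 h, and BZO2H3 without 1 h.

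Both MADS genes fell. PI (AT5G20240, PISTILLATA), which specifies petals and stamens, had log2 ratios of -0.69 at 0 h, -0.72 at 1 h, -0.67 at 3 h and -0.94 at recovery (limma adjusted p = 0.00181). AGL87 (AT1G22590) had -1.01, -0.64, -0.84 and -1.23 and fell by 0.93 ± 0.25 (SD, n = 4 stages; limma adjusted p = 0.0027). The gap was present at all 4 stages in both. PI is a floral gene in seedlings collected as shoots, where its mean signal at 0 h was 28.5 in EBR and 89.8 in control, and its control arrays had an approximate pooled SD of 0.49, the largest of the 44 genes. It was the 1 gene of 4 flower markers in the authors' tables, and none of 7 shoot, 8 root or 3 seed markers was listed there, so the labelled tissue could not be checked from named markers and the part of tissue make-up in the PI result was not tested. WRKY17 (AT2G24570), a negative regulator of basal defence, fell by 0.87 ± 0.22 (limma adjusted p = 0.00261), with -1.06, -0.77, -1.05 and -0.61. Its signal at 0 h was 4.26 in EBR and 10.3 in control, near the lowest listed level. AT4G17810, a C2H2 zinc finger gene, fell by 0.70 ± 0.08 (limma adjusted p = 0.00164), with ratios of only -0.78 to -0.61. The auxin response factors ARF6 (AT1G30330) and ARF19 (AT1G19220) were not called (limma adjusted p = 0.528 and 0.123), and no stage ratio of theirs passed 0.24 in size.

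Among genes of plastid transcription PTAC12 (AT2G34640) and PTAC2 (AT1G74850) fell and PTAC13 (AT3G09210) was not called. These proteins belong to the transcriptionally active chromosome of plastids and are needed there by the plastid-encoded RNA polymerase. PTAC12 had the steadiest ratios of the called genes, -0.66 at 0 h, -0.75 at 1 h, -0.76 at 3 h and -0.67 at recovery, and fell by 0.71 ± 0.05 (SD, n = 4 stages; limma adjusted p = 0.00146). PTAC2 fell by 0.44 ± 0.16 (limma adjusted p = 0.0129), a call lost when 0 h, 1 h or 3 h was left out. PTAC13 had -0.25, -0.05, -0.32 and -0.34, below 0 at each stage (limma adjusted p = 0.0742). GPRI1 (AT2G20570, also called GLK1), a nuclear activator of chloroplast genes, rose by 0.45 ± 0.10 (limma adjusted p = 0.00839), with 0.43, 0.55, 0.32 and 0.51. The plastid transcription genes and GPRI1, which both serve chloroplast development, thus had opposite signs at every stage. GPRI1 lost its call without 1 h.

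The other 11 genes were spread over both directions. P1R1 (AT5G57780) had log2 ratios of -1.04 at 0 h, -0.46 at 1 h, -1.03 at 3 h and -1.04 at recovery, and fell by 0.89 ± 0.29 (SD, n = 4 stages; limma adjusted p = 0.00448). AT1G67120 fell by 0.58 ± 0.32 (limma adjusted p = 0.0218), with -0.60, -0.86, -0.75 and -0.12. P1R1 was just over 2-fold lower at 3 stages, and the gap of AT1G67120 was small at recovery. BPC1 (AT2G01930), which binds GA repeats, fell by 0.44 ± 0.10 (limma adjusted p = 0.00903), and GRP2 (AT4G38680), a cold shock domain protein that binds nucleic acids, fell by 0.39 ± 0.17 (limma adjusted p = 0.0227). PHL1 (AT5G29000), a partner of the main phosphate starvation regulator, rose by 0.53 ± 0.17 (limma adjusted p = 0.00856), with 0.58, 0.70, 0.56 and 0.29. RAB7A rose by 0.58 ± 0.39 (limma adjusted p = 0.035), with 0.10, 0.51, 0.65 and 1.04, and is the 1 gene among those that rose whose ratio was higher at each later stage. AT1G76580 rose by 0.33 ± 0.19 (limma adjusted p = 0.0431) and lost that call whichever stage was left out. BPC1 and PHL1 lost their calls without 1 h, RAB7A without 1 h or 3 h, and GRP2 and AT1G67120 without 0 h, 1 h or 3 h. AT2G40435 had 1.04 at 0 h and 0.14 to 0.26 afterwards and was not called (limma adjusted p = 0.126). SR1 (AT2G22300, also called CAMTA3), a calmodulin-binding factor of cold and defence responses, had 0.52, -0.02, 0.36 and -0.38 (limma adjusted p = 0.67), and without the 0 h ratio its mean was -0.02 against 0.12. AT3G02790 (MBS1, of singlet oxygen signalling) and AT4G12750 were not called either, with means of -0.28 and -0.42 (limma adjusted p = 0.0552 and 0.135).

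The count at least 2-fold higher was largest before heat, while the count at least 2-fold lower was the same at 0 h and recovery. At 0 h, 7 genes were at least 2-fold higher in EBR shoots and 4 at least 2-fold lower, against 0.95% and 0.123% of all probe sets. The higher genes were DREB26, NF-YA2, NF-YA3, NF-YA5, MYB47, AT2G40435 and PAP1, and the lower were ARR16, WRKY17, P1R1 and AGL87. At 1 h of heat 1 gene was higher, NF-YA2, and 1 lower, MYB16 (0.677% and 0.123% of all probe sets). At 3 h, DREB26 and NAC069 were higher, and WRKY17 and P1R1 lower (0.818% and 0.154%). At recovery NF-YA3, NF-YA2 and RAB7A were higher, and AGL87, BZO2H3, MYB16 and P1R1 lower (0.585% and 0.365%). The median size of the log2 ratio was 0.59 at 0 h, 0.50 at 1 h, 0.47 at 3 h and 0.41 at recovery for the 44 genes, and 0.13 to 0.15 at every stage for all probe sets. Ratios were larger in size at 0 h than at 1 h in 26 of the 44 genes, and larger than at 3 h in 28. Over all probe sets those shares were 47.6% and 46.9%. By the authors' normalized values the shares were 56.8% at both for the 44 genes. They were 55.5% and 53.4% for all 708 probe sets listed with them, so this is not read as particular to the 44. The tables from which the genes came included 2-fold differences at 0 h as a way in, by which 19 of the 44 could enter, so larger ratios at that stage are in part fixed by the choice.

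By an approximate standard error taken from the spread of the control arrays, 32 of the 44 genes lay at least 3 standard errors from 0 at 0 h, 25 at 1 h, 26 at 3 h and 22 at recovery. The shares of all probe sets were 14.5%, 17.3%, 16.6% and 16.5% in that order. None of the 44 genes differed between 1 stage and the other 3 after adjustment by limma, at any stage, and of all probe sets 0% were called at 0 h, 1 h and 3 h. At an unadjusted limma p under 0.05 the 0 h ratio of 14 genes differed from the rest (2.69% of all probe sets). For 1 h it was 1 gene, P1R1 (3.39%), and for 3 h it was 4 genes (3.97%). At 0 h the unadjusted p was lowest for ARR16, 0.84 log2 units below its other stages (unadjusted p = 0.00117, limma adjusted p = 0.837), and for AT2G40435, 0.85 above them (unadjusted p = 0.00118, limma adjusted p = 0.837). The single ratio at the tested stage carries no error of its own in these contrasts and was assumed to vary like the others. RNA degradation shows in the array as a 3' signal that exceeds the 5' signal of long transcripts. For actin and GAPDH this excess was larger in EBR than in control at 1 h, for 4 of 4 pairs and by 0.29 to 0.57 log2 units. It was larger in EBR for 1 of 4 pairs at 0 h and for 2 of 4 at 3 h, and its part in the stage ratios was not tested.

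After 6 h of recovery 39 of the 44 genes kept the sign of their mean ratio at the earlier stages, which is 88.6%. That share was 83% in the other 648 probe sets with 1 locus and 60.5% over all probe sets. The 5 exceptions were MYB47, MYB59, NAC069 and SR1, with an earlier mean above 0 and a recovery ratio below it, and AT4G12750, which turned the other way. AT4G12750 had 0.24 at recovery against a mean of -0.64 at the other stages, and this difference of 0.89 was the closest to the threshold (limma adjusted p = 0.0773). NAC069 had -0.19 at recovery against 0.71 (limma adjusted p = 0.152), and BZO2H3 had -1.13 against -0.56 (limma adjusted p = 0.145). The turns of sign therefore did not pass, and 12 genes had an unadjusted limma p under 0.05 (13.3% of all probe sets), while 0.374% of all probe sets were called higher and 0.11% lower at recovery after adjustment. Recovery was also the stage at which the actin and GAPDH 3' excess was smaller in EBR for 4 of 4 pairs, with differences of -0.47 to -0.08 log2 units. Its part in these differences was not tested.

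**Figure D3:**
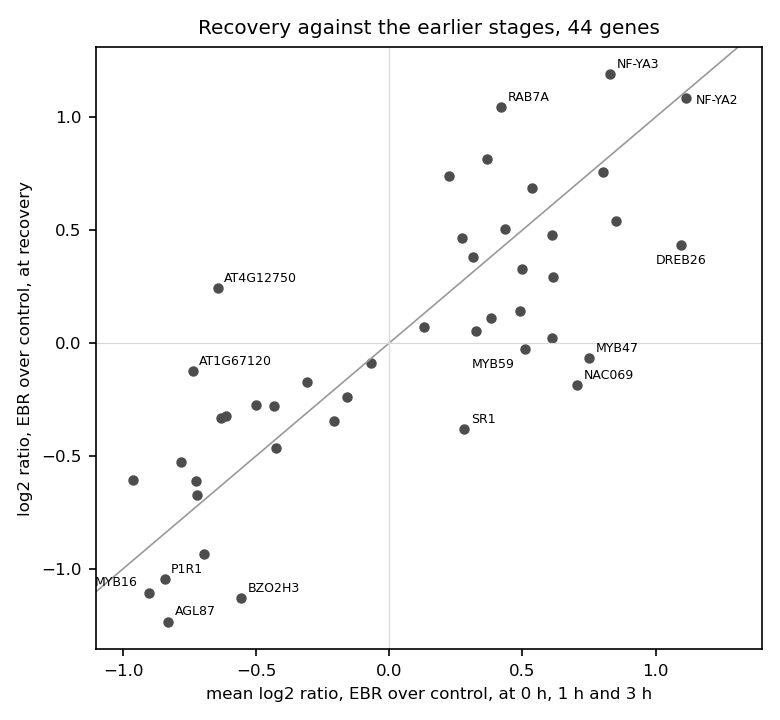
Log2 ratio of EBR over control at recovery (vertical axis) against the mean of the 0 h, 1 h and 3 h ratios (horizontal axis), 1 point per gene for the 44 genes, with the line of equal values. RAB7A (1.04 at recovery) lies above the line and BZO2H3 (-1.13) below it, and MYB47, MYB59, NAC069, SR1 and AT4G12750 lie across 0 from their earlier mean.

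The change with heat within each arm was read from another table that the authors deposited, in which conditions are set against control shoots at 0 h, with all 44 genes among 708 probe sets. It gives condition means of normalized log2 signal for 0 h, 1 h and 3 h, with no error and no recovery stage, so nothing below is tested. Most of the 44 genes were lower during heat. In EBR shoots 3 genes were at least 2-fold higher after 1 h than at 0 h and 18 at least 2-fold lower (11% and 24.3% of the 708), and in control shoots 4 were higher and 12 lower (11.3% and 20.5%). After 3 h it was 4 higher and 19 lower in EBR shoots (15% and 27%), and 4 higher and 14 lower in control shoots (10.2% and 22.3%). In both arms and at both times 26 genes were below their 0 h level and 11 above it. No share of the 708 was taken for these 2 counts, so they are not read as particular to the 44 genes. The median change at 3 h was -0.91 in EBR and -0.48 in control for the 44 genes, and -0.33 in EBR and -0.20 in control for all 708 probe sets. Membership of that table required a 2-fold difference from the unstressed control in at least 1 of 5 conditions, and 25 of the 44 genes are there only for conditions with heat, in either arm. A heated EBR condition set against unstressed control holds the EBR effect as well as the heat change. RAB7A, for example, was 2.23-fold apart in EBR shoots at 3 h, with heat changes in control shoots of only -0.05 at 1 h and -0.02 at 3 h. The counts above therefore follow in part from the choice.

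Genes that were lower with heat in both arms included ARF6, a promoter of auxin-driven elongation and flower maturation, at -1.83 after 1 h and -2.61 after 3 h in EBR shoots, and at -1.48 and -2.50 in control shoots. ARR4 was lower by like amounts, with -1.83 and -1.86 in EBR and -1.95 and -2.19 in control. GPRI1 lay at -1.51 and -2.06 in EBR and at -1.62 and -2.03 in control, so its EBR excess of 1.36 to 1.49 on the authors' scale was there at each stage as the level was lower. MYB59 lay at -1.93 and -2.06 in EBR and at -1.93 and -1.60 in control, and PTAC13 at -1.59 and -1.85 in EBR and at -1.56 and -1.56 in control. In these 5 genes the arms ran close together. Few genes were higher with heat. NAC2 (also called ANAC078) was higher by 1.91 and 1.96 in EBR and by 1.90 and 1.87 in control, and SR1 by 0.78 and 1.23 in EBR and by 1.21 and 1.46 in control. NF-YA5 was the NF-YA gene that was higher, by 0.98 and 0.84 in EBR and by 1.89 and 1.67 in control, while NF-YA2, NF-YA3 and NF-YA6 were lower in both arms. NAC069 was higher by 1.36 and 1.71 in EBR and by 1.59 and 0.76 in control. Between 3 h and 1 h, NF-YA2 in EBR shoots, at -1.14 (1.55% of the 708 lower), and ARF6 in control shoots, at -1.02 (1.41% lower), were the only ones of the 44 at least 2-fold apart.

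The arms parted in a few genes. The quantity given here is the heat change in EBR minus that in control, which is the same as the EBR effect at that heat stage minus the EBR effect at 0 h. After 1 h it was at least 2-fold lower in 6 genes (4.38% of the 708) and at least 2-fold higher in 2 (2.4%). NF-YA3 lay at -2.73 with heat in EBR shoots and at -0.72 in control shoots, a difference of -2.02. AT2G40435 lay at -1.99 in EBR and -0.07 in control, PAP1 at -1.69 in EBR and 0.01 in control, and NF-YA6 at -2.45 in EBR and -0.86 in control. DREB26 and MYB16 were the other two, with differences of -1.47 and -1.25. NF-YA3, NF-YA6, DREB26, PAP1 and AT2G40435 thus had a higher 0 h level in EBR and a larger decrease there at 1 h, whereas MYB16 was already lower in EBR at 0 h and had the larger decrease too. ARR15 and ARR16 made up the opposite set. ARR15 was level in EBR shoots, where it was already low (normalized log2 levels of -0.01 at 0 h and 0.00 at 1 h), and lay at -1.46 in control shoots, and ARR16 lay at -1.07 in EBR and at -2.45 in control. After 3 h, 7 genes were at least 2-fold lower on this measure (4.66%) and 3 at least 2-fold higher (3.67%). The lower were NF-YA3 at -2.48, AT2G40435 at -2.14, PAP1 at -1.86, NF-YA6 at -1.84, MYB16 at -1.53, NF-YA2 at -1.34 and NF-YA8 at -1.31, and the higher were ARR16 at 1.48, ARR15 at 1.39 and ERF15 at 1.07. ERF15 differed from the response regulators in how it got there, with 1.26 in EBR and 0.19 in control, where its mean signal at 3 h was 18.0 in EBR and 7.14 in control. By the authors' values, EBR and control were at least 2-fold apart at 0 h in all genes named here but MYB16 (-0.60) and ERF15 (0.14). Such a gap at 0 h was a way into the tables, so a shift against it with heat is in part fixed by the choice of genes. The size of that part was not tested. PAP1, AT2G40435, NF-YA8 and ARR15 sat at a flat level in 1 arm. The authors' mean signal at 0 h in control was 4.85 for PAP1, 11.5 for AT2G40435 and 5.34 for NF-YA8. For ARR15 it was 6.01 in EBR. The part of such low signals, that of ERF15 included, was not tested.

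**Figure D4:**
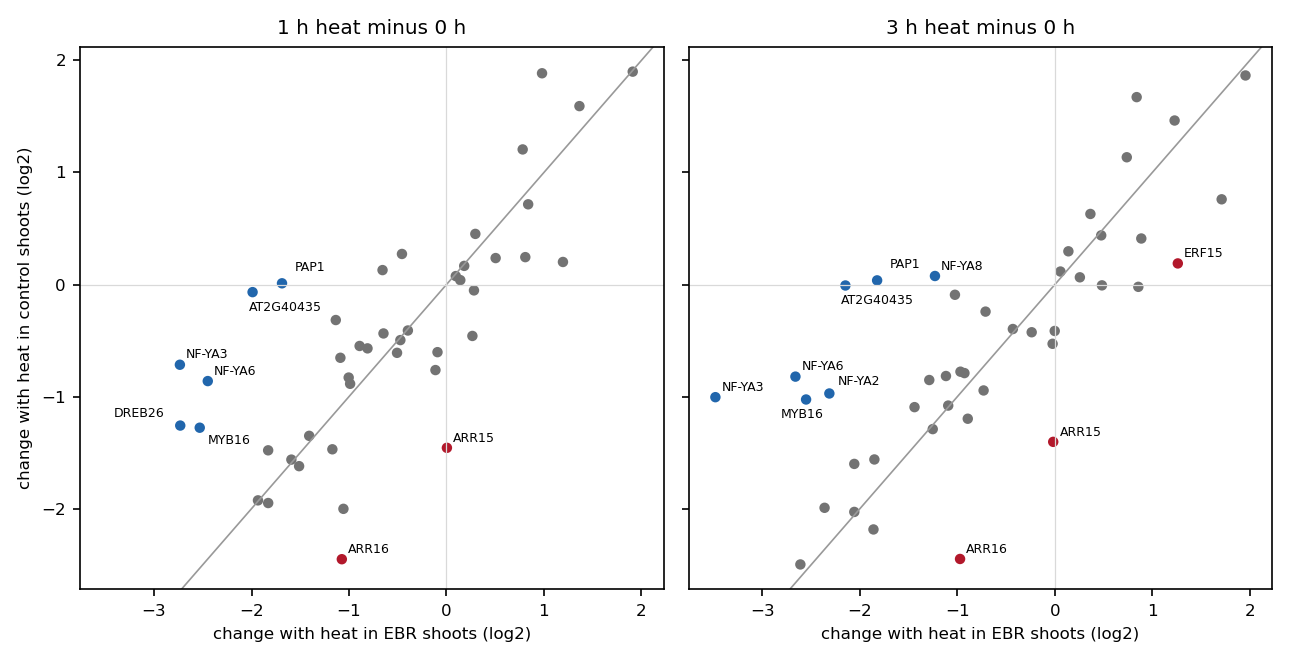
Change with heat in log2 units in EBR shoots (horizontal axis) against control shoots (vertical axis) for the 44 genes, after 1 h (left) and 3 h (right), from the authors' condition means, with the line of equal change. Blue points have a change at least 2-fold lower in EBR than in control, red points one at least 2-fold higher, and grey points the rest; NF-YA3 lies furthest left, and ARR15 and ARR16 lie below the line.

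The size of the EBR effect depended on which deposited values were used, and its sign hardly did. The authors' normalized log2 values gave EBR minus control differences that had the sign of the value table in 44 of 44 genes at 0 h, 42 at 1 h and 44 at 3 h, and the exceptions were ARF6 and SR1, each with a value table ratio of 0.02 in size at 1 h. Signs matched as widely over all 708 probe sets, in 705 at 0 h, 698 at 1 h and 694 at 3 h. Across the 44 genes, which are not independent replicates and come from the same arrays in both measures, Pearson's r was 0.96 at 0 h, 0.93 at 1 h and 0.93 at 3 h. The value table was compressed, with slopes of 0.61, 0.59 and 0.60 on the authors' differences, and slopes of 0.68 to 0.71 over all 708 probe sets. By the authors' values 19, 8 and 14 genes were at least 2-fold apart at the 3 stages, of which 11, 2 and 3 were also so in the value table. Of all 708 probe sets, 273, 226 and 240 were that far apart by the authors' values, of which 131, 112 and 121 were also so in the value table. The gap was wide for NF-YA2, with 2.78 on the authors' scale at 0 h and 3.08 at 1 h, and for NF-YA3, with 3.14 at 0 h. MYB62 went against this at 0 h, with 0.57 by the authors' values and 0.97 in the value table.

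**Figure D5:**
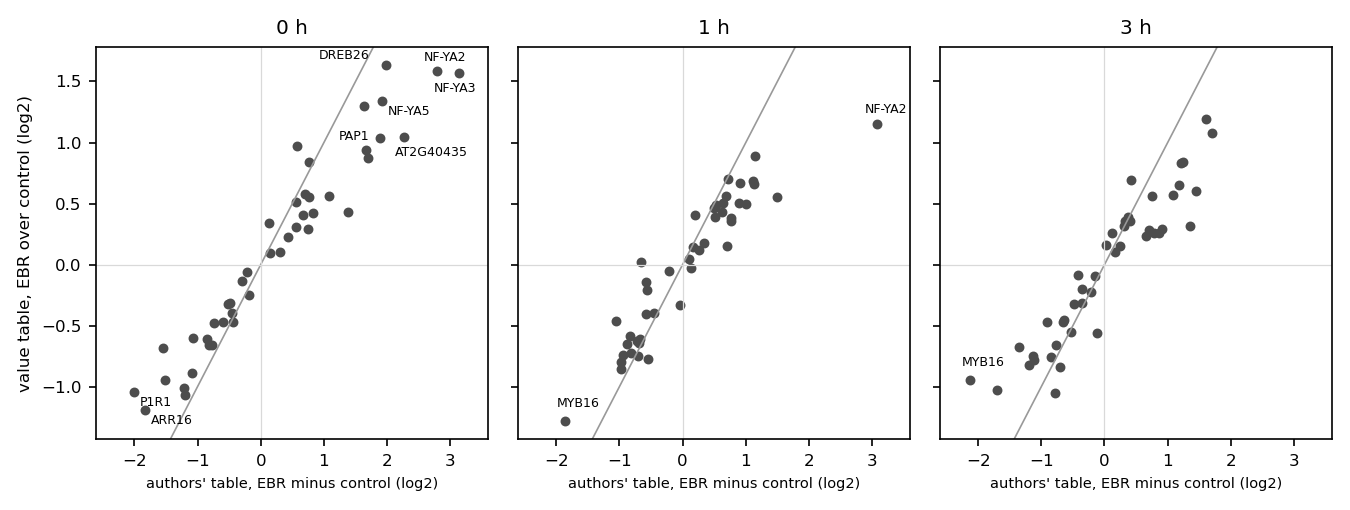
Log2 ratio of EBR over control in the value table (vertical axis) against the EBR minus control difference of the authors' normalized log2 values (horizontal axis) for the 44 genes at 0 h, 1 h and 3 h, with the line of equal values. Signs match in 44, 42 and 44 genes, and genes far from 0 on the authors' scale, such as NF-YA2 at 1 h (3.08), lie closer to 0 in the value table.

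NF-YA2 had the widest range over the 6 conditions of that table, 4.25 log2 units, followed by NF-YA3 at 4.14 and DREB26 at 3.97. The genes whose levels followed NF-YA2 most closely over those 6 conditions were NF-YA8 (Pearson's r = 0.93), GPRI1 (0.91), MYB47 (0.91), NF-YA3 (0.89) and AT1G76580 (0.85). NF-YA5 did not follow it (0.29), and AT1G67120 ran opposite to it (-0.86). With 6 points, all from 1 set of arrays, these values only describe likeness. Of 27 genes of the brassinosteroid transcription circuit that were looked up, GPRI1 was the 1 with its locus in the authors' tables, and it rose. None of the 19 heat stress regulators, 16 abscisic acid and drought regulators and 12 clock regulators looked up was among the 692, so their EBR effect was not analysed here. These lists, that of the brassinosteroid circuit included, are partial. The 5 loci left out at the start are in the authors' tables and were on none of the lists. Absence thus holds for the loci looked up, and not for every regulator of these kinds.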

How the data were processed

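Biotin-labelled shoot RNA was hybridised to the ATH1 array, per the labels. MAS5 and GCRMA are named, with neither version nor role, per the submitters' processing notes. The sources used here do not say how 3 arrays became 1 value. The value table holds linear ratios deposited by the authors. Its control columns never exceed 1, so values were read as relative to the control of the same stage, which is an inference. Each stage's EBR ratio was divided by its control ratio and put on a log2 scale. Comparison tables deposited by the authors give a fold, a mean intensity and a normalized log2 value for each condition, and per the file headers their probe sets passed an analysis of variance and a 2-fold threshold.

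Stage ratios were tested in limma 3.58.1 (R 4.3.3), as their mean against 0 and as 1 stage against the other 3, with Benjamini-Hochberg adjustment over 22746 probe sets at 0.05, after 11 array controls were left out. The fit was tested on simulated data. An approximate control SD was computed by reading the control columns as geometric over arithmetic means of 3 arrays, and EBR arrays were assumed to vary alike. Precision is limited by the number of arrays.

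The members and lists were chosen with earlier results of these data known, and families were grouped by gene name after values were seen. Symbols come from the TAIR10.1 reference table, where all 44 loci matched. No coordinates are given, as the files state no build. Alternatives were median centring, quantile normalization, leaving out each stage, no variance moderation, other thresholds, no annotation exclusions and, added after the data were seen, the authors' values. Genes were named by rank of mean ratio, 2-fold stages, heat change, difference between arms, family and lists, and the rest of the 44 so that each is accounted for.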

Additional observations from a re-analysis of the deposited data

How the results depend on the processing

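With 1 stage left out, 2 to 17 genes rose and 8 to 17 fell, and the fewest calls came without 1 h. Shares over all probe sets were not taken for these fits. With no variance moderation 0 rose and 0 fell after adjustment, and over all probe sets 9 were called. In that fit 11 of the 44 genes were higher and 17 lower at an unadjusted p under 0.05. Over all 22746 probe sets the matching counts were 1687 and 2854. An adjusted p of at most 0.01 left 4 that rose and 10 that fell. Counts past 2-fold at a single stage are thresholds on values with no test. At 1.5-fold they were 11 higher and 11 lower at 0 h, 6 and 12 at 1 h, 7 and 10 at 3 h, and 7 and 8 at recovery. By the authors' normalized values 11 were higher and 8 lower at 0 h, 6 and 2 at 1 h, and 8 and 6 at 3 h. Median centring left 1 lower at 3 h, and quantile normalization 1 lower at recovery. At 1.5-fold 20 genes were lower with 1 h of heat in control, and 7 and 8 were higher with 1 h and 3 h in EBR. No shares over all probe sets were taken for the counts at 0.01, at 1.5-fold, or after centring or quantile normalization. Nor were they taken in each direction by the authors' values, so none of these counts is read as particular to the 44 genes. The mean of SR1 ran from -0.0168 (without 0 h) to 0.2824 (without recovery). Centring and quantile normalization each cost 1 of 29 calls, ARR16, and by the authors' values 26 of the 44 means moved by over the spread between stages. Heat changes by intensity and promoter motifs were not run. The causes were not tested. The 44 genes were selected on these samples, each group has 1 deposited sample, and low signals limit PAP1, WRKY17, ARR15, ERF15, NF-YA5 and NF-YA8, among others.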
